A study of Homo sapiens with 24 samples.

Results

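The genes described here are 41 genes of the G1/S transition and of DNA replication, out of 18417 genes measured in the series. They were taken by name, as the array features (Affymetrix probe sets) whose only gene symbol is one of the 41. The list was drawn up with earlier results of these data known. A share of calls above that of all probe sets may in part reflect this choice. All 41 had exactly 1 such probe set, so no choice between probe sets was needed. No filter on low values was applied to them.

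The cells were MCF10A, an established line of human mammary epithelium that is not tumorigenic. RNA was measured on 24 arrays in 12 groups of 2 replicates, from 3 transfections at 4 times of EGF, the growth factor that stimulates these cells. Control cells received a non-targeting oligonucleotide, si-miR-20a cells one directed at the microRNA miR-20a, and si-miR-671 cells one directed at miR-671-5p, each sampled at 0, 30, 60 and 120 min of EGF. All 12 groups share the line, the transfection reagent Oligofectamine and a growth medium with insulin, cholera toxin, hydrocortisone, horse serum and EGF. The labels do not say whether EGF was withdrawn before the time course. The labels call the replicates biological and do not say whether they came from separate cultures, so p-values measure the spread between these samples, which may in part be technical. One line and one oligonucleotide per microRNA limit each group as a model, and the levels of the microRNAs themselves were not analysed here.

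Before a cell copies its DNA, cyclin E with its kinase releases E2F transcription factors, which switch on the genes of replication. In G1, the origin recognition complex with CDC6 and CDT1 loads the ring-shaped MCM helicase onto origins, a step called licensing that geminin (GMNN) blocks by binding CDT1. At the start of S phase, the kinase CDC7, MCM10, CDC45 and the GINS complex turn the loaded ring into a running helicase, and primase, polymerases, the sliding clamp PCNA and its loaders of the RFC family copy the DNA. Ribonucleotide reductase (RRM1, RRM2) and thymidylate synthase (TYMS) supply the nucleotides, and CHAF1A, CHAF1B and SLBP serve the packaging of new DNA into histones. Resting epithelial cells that are given EGF pass through G1 over many hours before they reach S phase.

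Both targeted microRNAs are shown with the seed, bases 2 to 8, in capitals, because the seed is what pairs with target transcripts. The sequences are RefSeq's, on GRCh38.p14. miR-20a-5p lies at chr13:91351072-91351094 on the plus strand within the span of the non-coding host gene MIR17HG, and miR-671-5p at chr7:151238449-151238471 on the plus strand within the span of CHPF2. miR-93-5p shares the seed of miR-20a and lies at chr7:100093815-100093837 on the minus strand, within the span of MCM7, which is one of the 41 genes.
hsa-miR-20a-5p: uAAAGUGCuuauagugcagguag
hsa-miR-93-5p: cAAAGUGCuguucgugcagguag
hsa-miR-671-5p: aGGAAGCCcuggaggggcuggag
The seed AAAGUGC is carried by 8 mature human microRNAs in the RefSeq table used, the others being miR-17-5p, miR-20b-5p, miR-106a-5p, miR-106b-5p, miR-519d-3p and miR-526b-3p. miR-106b-5p also lies within the span of MCM7. The miR-671-5p seed, GGAAGCC, is a different one.

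Promoter windows of 300 bases, from 250 before to 50 after the start of the gene, were found for 35 of the 41 genes; CCNE2, E2F8, MCM4, MCM5, GINS4 and DSCC1 had none in the table. An E2F motif, spelled TTTCCCGC, TTTCGCGC, TTTGGCGC or TTTGCCGC on either strand, was present in 17 of the 35 windows (48.6%), against 3.33% of all 27305 windows in the table. In 15 of these 17 windows a match began between 60 bases before and 19 bases after the start. Matches overlapped each other in 2 windows, and an E2F match overlapped a CCAAT match in 1 window and a GGGCGG match in 1 window. CCAAT was found in 57.1% of the 35 windows and 35.7% of all, GGGCGG in 68.6% and 44.6%, and the CHR motif of mitotic genes, spelled TTTGAA or TTCGAA, in 5.71% and 16.6%. These shares describe letters, and a match is not a measured binding site.
The levels of GMNN and of 5 genes with an E2F match are described below. GMNN was lower than control with si-miR-20a and has no match in its window. Stretches from 100 bases before to 20 bases from the start are printed for GMNN and these 5 genes, with the match in capitals. They are the stretches of CDC6 (chr17:40287779-40287898, plus strand), DTL (chr1:212035648-212035767, plus), MCM3 (chr6:52284723-52284842, minus), POLE2 (chr14:49688195-49688314, minus), RFC3 (chr13:33818049-33818168, plus) and GMNN (chr6:24774837-24774956, plus).
CDC6: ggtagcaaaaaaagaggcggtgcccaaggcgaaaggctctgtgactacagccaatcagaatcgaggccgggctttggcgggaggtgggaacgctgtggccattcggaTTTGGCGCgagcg
DTL: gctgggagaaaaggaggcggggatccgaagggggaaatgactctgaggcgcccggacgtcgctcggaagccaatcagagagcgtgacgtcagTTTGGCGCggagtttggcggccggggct
MCM3: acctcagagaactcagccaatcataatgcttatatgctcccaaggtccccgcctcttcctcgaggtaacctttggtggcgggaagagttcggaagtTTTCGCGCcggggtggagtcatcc
POLE2: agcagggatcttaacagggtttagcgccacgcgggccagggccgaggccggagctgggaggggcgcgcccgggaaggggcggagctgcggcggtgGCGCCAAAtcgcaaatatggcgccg
RFC3: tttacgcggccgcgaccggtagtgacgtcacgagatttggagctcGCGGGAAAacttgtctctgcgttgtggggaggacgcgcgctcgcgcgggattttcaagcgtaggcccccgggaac
GMNN: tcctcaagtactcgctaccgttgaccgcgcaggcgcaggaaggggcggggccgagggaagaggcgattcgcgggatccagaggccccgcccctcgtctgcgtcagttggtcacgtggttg
In POLE2 and RFC3 the capitals are the motif as it reads on the opposite strand. The printed genes do not stand for all members. CDC45, MCM10 and RRM2 have no match in their windows and were higher than control with both targeting oligonucleotides. E2F1 and E2F2 have a match and passed in no comparison with control. CDT1, PCNA, MCM7 and TYMS have a match and were lower at the last time of EGF, averaged over the transfections. Whether a match goes with the direction of a change was not tested.

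Medians of the 24 arrays ran from 6.56 to 6.57 on the log2 scale as deposited. The epithelial markers KRT5 (12.5 to 12.7), KRT14 (11.7 to 12.1) and CDH1 (9.18 to 9.91) were high on all 24 arrays. The leukocyte marker PTPRC lay between 3.74 and 4.95 and the progesterone receptor PGR between 4.31 and 5.33, while the endothelial cadherin CDH5 lay between 10.0 and 11.2. The monocyte and macrophage markers CD14 (7.48 to 8.40) and CD68 (7.47 to 8.06) lay above the array median, as did GATA3 of luminal cells (6.64 to 7.53) and, far higher, the mesenchymal genes VIM (11.1 to 11.7) and FN1 (10.8 to 11.3). On a linear scale the 8 blood and endothelial markers summed to 1831 to 2121 on control arrays, 1809 to 3043 on si-miR-20a arrays and 1810 to 2058 on si-miR-671 arrays. The 7 mesenchymal markers summed to 5840 to 6179, 5048 to 5904 and 4859 to 5620 on the same arrays. CDH5 makes up most of the first sum, and VIM and FN1 most of the second, so neither sum describes its whole list. Averaged over time, 7 of the 28 markers measured were called against control with si-miR-671, EPCAM (0.50), CDH1 (0.21) and KRT14 (0.17) higher and LAMB3 (-0.13), CDH3 (-0.17), FN1 (-0.28) and CD14 (-0.30) lower. With si-miR-20a 9 were called, CDH1 (0.46), EPCAM (0.43), DCN (0.39), PECAM1 (0.27), KRT14 (0.26) and ITGB4 (0.25) higher and CDH3 (-0.11), CD14 (-0.21) and VIM (-0.24) lower. The part of these differences in the results below was not tested. The file holds no detection calls, so absence cannot be stated. All 6 immediate early genes used as a check of EGF were higher at 30 min than at 0 min in every transfection, for example FOS by 3.69 in control, 3.77 in si-miR-20a and 4.47 in si-miR-671 on the log2 scale.

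The arrays labelled si-miR-671 at 60 and 120 min stood apart from those at 0 and 30 min. At 80 genes with a mean level above 7 the early si-miR-20a arrays (0 and 30 min) differed by more than 0.5 from both other early sets. Each array was placed on a scale where 0 is the early si-miR-671 mean and 1 the early si-miR-20a mean. The late si-miR-671 arrays (60 and 120 min) had median positions of 0.81, 0.83, 1.05 and 0.66, and their mean was nearer to early si-miR-20a at 64 of the 80 genes. The same count was 5 for the late control arrays and 67 for the late si-miR-20a arrays. Only 3 genes set early si-miR-671 apart from both other early sets in this way. These genes were chosen after the data were seen, and 1 of the 80, GMNN, is among the 41. These values leave it in doubt whether the labels of the 4 late si-miR-671 arrays hold. The arrays are named by their labels throughout, so every late or time-averaged si-miR-671 value below is that of the arrays so labelled. Early and late times are given separately, and comparisons of transfections averaged over time are also given without those 4 arrays.

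**Figure D1:**
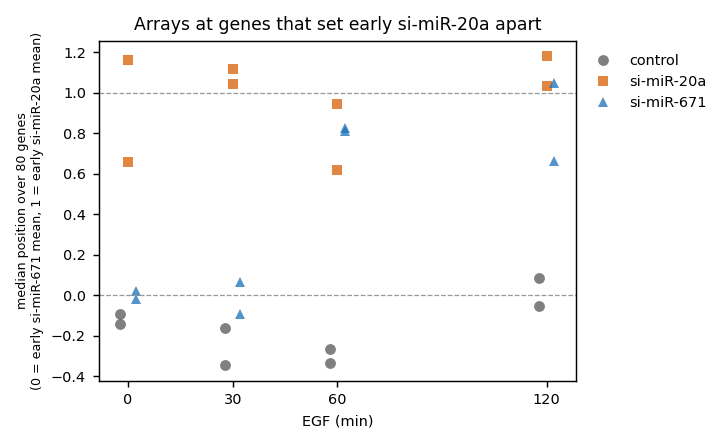
Median position of each array over 80 genes that set early si-miR-20a arrays apart, against minutes of EGF; 0 is the early si-miR-671 mean and 1 the early si-miR-20a mean, and each point is 1 array. The 4 late si-miR-671 arrays lie between 0.66 and 1.05, and the late control arrays lie near or below 0.

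As a plain description, the mean log2 level of the 41 genes in control cells was 7.54 at 0 min, 7.46 at 30 min, 7.39 at 60 min and 7.30 at 120 min. In si-miR-671 cells it was 7.78, 7.71, 7.76 and 7.72 at the same times, and in si-miR-20a cells 7.62, 7.50, 7.67 and 7.54. Every si-miR-671 array lay above every control array on this mean. The lowest of the 12 group means was control at 120 min for 23 genes and control at 60 min for 10, and the highest was si-miR-671 at 0 min for 14 genes and si-miR-671 at 60 min for 11. In a whole culture, a change in the share of cells in a cell cycle phase and a change of RNA per cell cannot be told apart.

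**Figure D2:**
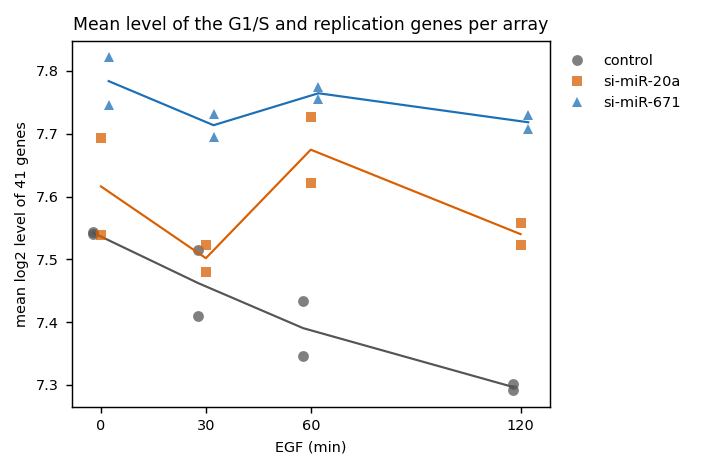
Mean log2 level of the 41 genes on each of the 24 arrays (points) and the mean of each group of 2 arrays (lines), against minutes of EGF. Control falls from 7.54 at 0 min to 7.30 at 120 min, while si-miR-671 stays between 7.71 and 7.78.

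**Figure D3:**
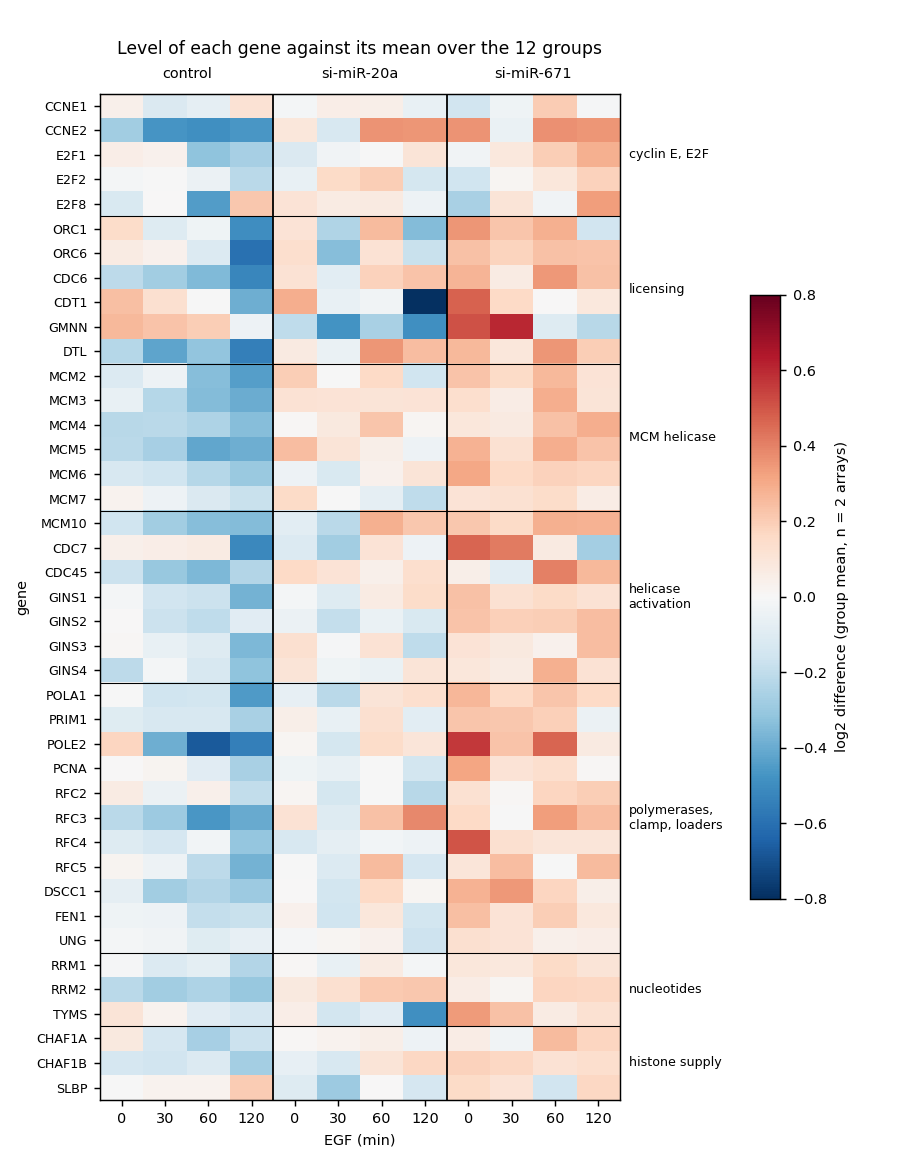
Group mean (n = 2 arrays) of each of the 41 genes minus that gene's mean over the 12 groups, in log2 units, by transfection and minutes of EGF, ordered by role. Control columns are mostly blue, deepest at 120 min, and GMNN is red in early si-miR-671 and blue in si-miR-20a.

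With si-miR-671 at 0 and 30 min, 13 of the 41 genes were higher than in control and 0 were lower. In this comparison limma's moderated test, fitted over all 24 arrays with Benjamini-Hochberg adjustment, called 2.81% of the 19460 probe sets tested, 1.36% higher and 1.44% lower, at an adjusted p under 0.05. The difference was above 0 for 37 of the 41, with a median of 0.26, against -0.01 for all probe sets. Groups of 4 arrays did not overlap, si-miR-671 above, for 21 genes (6.11% of all probe sets). Leaving out any 1 of the 8 arrays left 5 to 9 calls, and only leaving out si-miR-671 30 min replicate 2 kept the count within 1.5 times; CDC6, DTL, MCM5, MCM6 and RFC4 were called each time. A fit of these 4 groups alone called 1.

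Among the regulators, CCNE2, one of the cyclins that drive entry into S phase, read 6.56 and 6.51 on the control arrays at 0 min and 6.43 and 6.24 at 30 min. On the si-miR-671 arrays it read 7.29 and 7.05, then 6.75 and 6.76. All 4 si-miR-671 arrays were above all 4 control arrays, by 0.53 on average (SE 0.123, limma adjusted p = 0.031). This call was lost without any 1 of the 8 arrays, with adjusted p up to 0.16. The related cyclin CCNE1 differed by -0.05, E2F1 by -0.01, E2F2 by -0.06 and the repressor E2F8 by -0.02, and none of these passed the test.

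Of the 6 licensing genes, 2 rose, CDC6 and DTL. CDC6, which brings the MCM ring to origins, read 7.70, 7.70, 7.66 and 7.61 in early control and 8.19, 8.18, 7.97 and 7.99 in early si-miR-671. The groups did not overlap, and the difference was 0.41 (SE 0.0687, limma adjusted p = 0.0038). DTL directs the destruction of CDT1 once S phase has begun; it rose by 0.50 (limma adjusted p = 0.0022), from 7.82, 7.64, 7.65 and 7.42 to 8.25, 8.19, 8.03 and 8.07. GMNN differed by 0.31 (95% CI 0.01 to 0.62), ORC1 by 0.27, ORC6 by 0.16 and CDT1 by 0.13 without passing the test.

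Of the 6 MCM subunits, 4 rose, MCM3 by 0.24, MCM4 by 0.30, MCM5 by 0.44 and MCM6 by 0.38. The calls of MCM3 and MCM4 were lost in all 8 sets without 1 array. MCM6 read 8.48, 8.47, 8.49 and 8.40 in early control and 8.94, 8.88, 8.68 and 8.85 in early si-miR-671, with no overlap (limma adjusted p = 0.0055). MCM2 differed by 0.27 and MCM7, the host of miR-93 and miR-106b, by 0.12, and neither was called. Of the 7 activation genes, MCM10 rose by 0.40, and CDC7 missed the threshold with a difference of 0.40 (limma adjusted p = 0.051). MCM10 lost its call in 4 of the 8 sets without 1 array.

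In the copying machinery 4 of 11 genes rose, POLE2, a subunit of the leading strand polymerase, by 0.51, the clamp loader subunits RFC4 by 0.44 and DSCC1 by 0.49, and the primase subunit PRIM1 by 0.33. RFC4 read 7.29, 7.34, 7.37 and 7.20 in early control and 7.998, 7.85, 7.57 and 7.52 in early si-miR-671; the groups did not overlap (limma adjusted p = 0.0038). Its difference at 0 min alone was 0.61. RRM2 rose by 0.28, while RRM1 (0.14) and TYMS (0.22) were not called. The calls of POLE2, PRIM1 and RRM2 were lost in 7 of the 8 sets without 1 array, and that of DSCC1 in 6. None of the 3 histone supply genes passed the test.

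**Figure D4:**
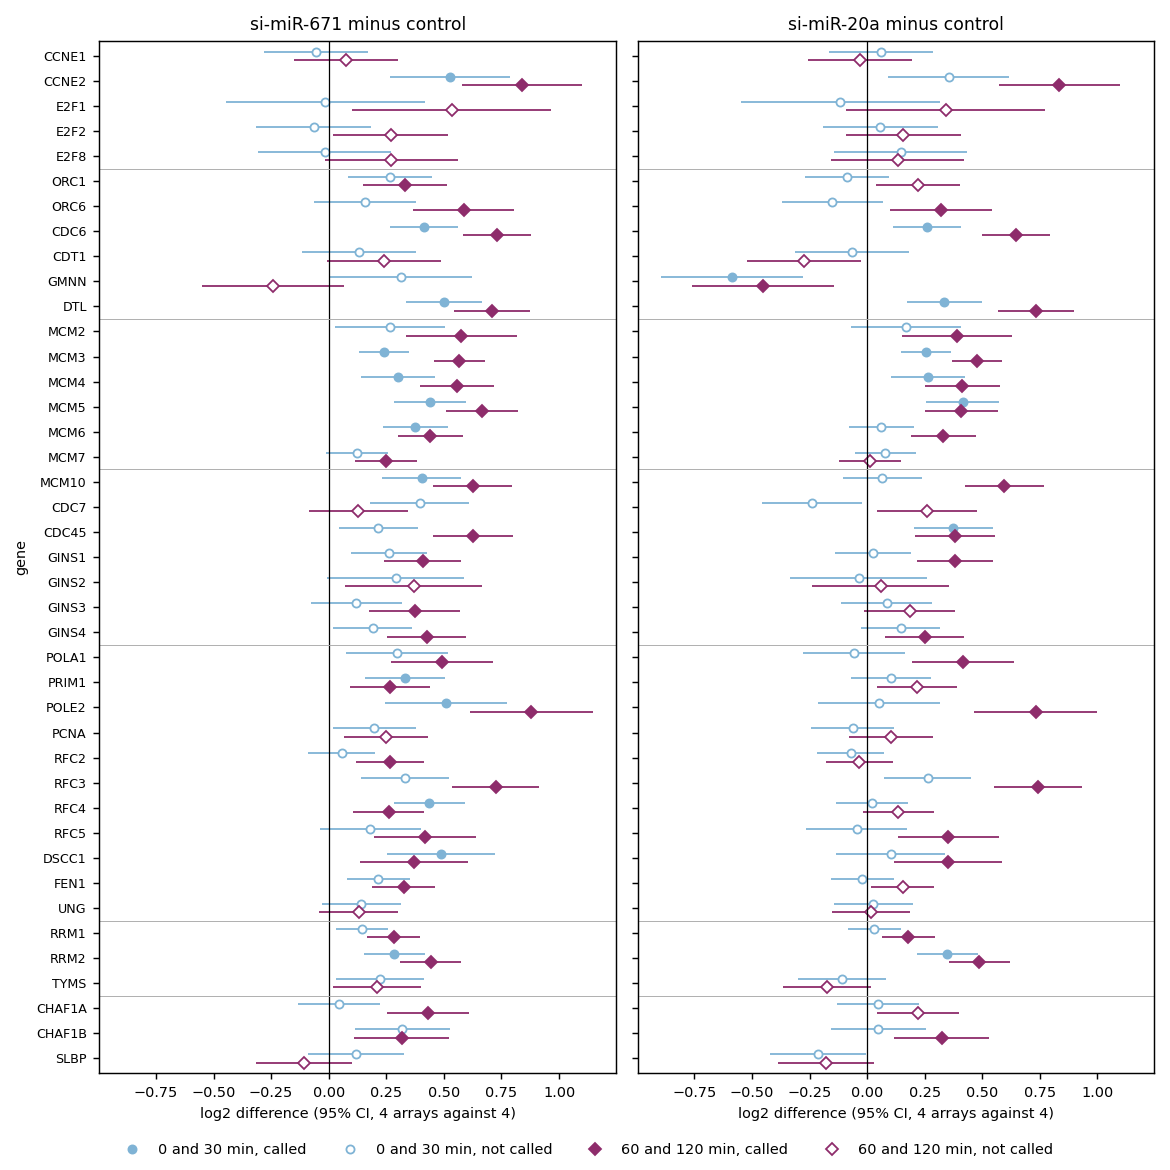
Difference from control of each of the 41 genes in log2 units for si-miR-671 (left) and si-miR-20a (right), at 0 and 30 min (circles) and 60 and 120 min (diamonds), with 95% confidence intervals from limma, 4 arrays against 4; filled symbols had an adjusted p under 0.05. Filled circles number 13 on the left and 8 on the right, and GMNN is the filled symbol left of 0 on the right.

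With si-miR-20a at 0 and 30 min, 7 of the 41 genes were higher than in control and 1, GMNN, was lower. This comparison uses the same control arrays. limma called 12% of all probe sets in it, 4.79% higher and 7.17% lower, so the share of the 41 that rose was 7 of 41 against a background that was itself larger than in the si-miR-671 comparison. The median difference of the 41 was 0.05, against 0.01 for all probe sets, and 27 were above 0. Groups did not overlap, si-miR-20a above, for 8 genes (8.47% of all probe sets). The calls numbered 5 to 8 when 1 of the 8 arrays was left out, with 5 without control 0 min replicate 1, control 30 min replicate 1 or control 30 min replicate 2. Fitting these 4 groups alone gave 3.

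The genes that rose were CDC6 (0.26), DTL (0.34), MCM3 (0.26), MCM4 (0.26), MCM5 (0.41), CDC45 (0.37) and RRM2 (0.35). RRM2, the regulated subunit of ribonucleotide reductase, read 8.83, 8.86, 8.80 and 8.76 in early control and 9.21, 9.07, 9.19 and 9.19 in early si-miR-20a, with no overlap (limma adjusted p = 0.0019). CDC45, part of the running helicase, read 6.91, 6.95, 6.81 and 6.78 in control and 7.22, 7.30, 7.17 and 7.25 in si-miR-20a, again with no overlap (limma adjusted p = 0.0068). CDC45, MCM3, MCM5 and RRM2 kept their call without any 1 array. No gene of the 11 in the copying machinery was called.

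GMNN, the inhibitor of licensing, moved the other way. It read 7.58, 7.40, 7.76 and 7.15 on the early control arrays and 7.32, 6.73, 6.76 and 6.75 on the early si-miR-20a arrays. The groups overlapped by 1 array each, and the difference was -0.58 (SE 0.144, limma adjusted p = 0.015). The call was lost in 3 of the 8 sets that left out 1 array, with adjusted p up to 0.083.

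The early arrays of both targeting oligonucleotides were also set against each other, without the control arrays; this comparison was added after the data were seen. Of the 41 genes, 10 were lower with si-miR-20a and 0 higher, where limma called 7.51% of all probe sets, 4.77% lower and 2.74% higher. GMNN was lower by 0.90 on the log2 scale, with 7.32, 6.73, 6.76 and 6.75 in si-miR-20a against 7.68, 7.81, 8.002 and 7.66 in si-miR-671 and no overlap (limma adjusted p = 0.0027). CDC7, the kinase that fires origins, was lower by 0.64, with 6.28, 6.01, 6.02 and 5.93 against 6.70, 6.73, 6.72 and 6.62 and again no overlap (limma adjusted p = 0.0025). The others were POLE2 (-0.46), RFC4 (-0.42), DSCC1 (-0.39), ORC1 (-0.35), MCM10 (-0.34), TYMS (-0.33), MCM6 (-0.31) and FEN1 (-0.24). GMNN, CDC7 and RFC4 were called whichever array was left out, and the count then ran from 3 to 11. It was 3 without si-miR-671 0 min replicate 1, si-miR-20a 0 min replicate 2 or si-miR-20a 30 min replicate 1, and 4 to 6 without either si-miR-671 30 min array or si-miR-20a 30 min replicate 2. With all probe sets tested the count was 6, and 0 in a fit of these groups alone.

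At 60 and 120 min more of the 41 genes differed from control in both targeting groups. Both comparisons use the same late control arrays, and in comparisons with control rose means higher than control at the same times. From early to late arrays the median change of the 41 was -0.14 in control, 0.01 in si-miR-671 and 0.03 in si-miR-20a. On the arrays labelled si-miR-671, 29 of the 41 genes were higher and 0 lower, with 15.4% of all probe sets called, 7.04% higher and 8.37% lower, and a median of 0.37 for the 41. These are the arrays whose mean was nearer to early si-miR-20a at 64 of the 80 genes above, and what part that has in these values was not tested. With si-miR-20a, 21 were higher and GMNN lower, with 16.7% of all probe sets called, 8.95% higher and 7.75% lower, and a median of 0.26. Groups did not overlap for 30 genes with si-miR-671 (8.27% of all probe sets) and 17 with si-miR-20a (7.66%). Leaving out 1 array left 22 to 27 and 15 to 21 calls. A fit of the compared groups alone called 9 for si-miR-20a.

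CCNE2 read 6.51, 6.12, 6.34 and 6.35 on the late control arrays, 7.36, 6.97, 7.02 and 7.31 with si-miR-20a, and 7.10, 7.25, 7.15 and 7.18 with si-miR-671. Neither targeting group overlapped control, and CCNE2 was higher by 0.83 and 0.84 (SE 0.123 each; limma adjusted p = 0.00031 and 0.00028). POLE2, at the bottom of the measured range of the 41, read 4.63, 4.47, 4.51 and 4.83 in late control, 5.62, 5.11, 5.25 and 5.39 with si-miR-20a, and 5.79, 5.59, 5.35 and 5.24 with si-miR-671. RFC3, a clamp loader subunit, rose by 0.74 with si-miR-20a and 0.72 with si-miR-671, reading 7.34, 7.32, 7.24 and 7.55 in late control, 8.03, 8.03, 8.09 and 8.27 with si-miR-20a, and 8.08, 8.19, 8.22 and 7.87 with si-miR-671.

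In the licensing group CDC6 was higher by 0.65 with si-miR-20a and by 0.73 with si-miR-671, and DTL by 0.73 and 0.71. ORC6, a subunit of the origin recognition complex, rose by 0.32 and 0.59. With si-miR-20a the call of ORC6 was lost in 5 of the 8 sets without 1 array. CDT1 differed by -0.27 and 0.24 and was called in neither. GMNN was lower with si-miR-20a by 0.45 on the log2 scale, a call that 7 of the 8 sets without 1 array lost, and it differed by -0.24 with si-miR-671.

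Of the 6 MCM subunits all rose with si-miR-671, from 0.25 (MCM7) to 0.66 (MCM5), and 5 rose with si-miR-20a, from 0.33 (MCM6) to 0.48 (MCM3), the exception being MCM7 with 0.01. MCM3 varied little in si-miR-20a cells, with a lowest, median and highest level of 8.64, 8.69 and 8.71 over the 8 arrays. In control the same 3 values were 8.13, 8.31 and 8.53, and in si-miR-671 8.60, 8.71 and 8.89. Of the activation genes, 5 of 7 rose with si-miR-671 and 4 of 7 with si-miR-20a, MCM10 by 0.62 and 0.60 and CDC45 by 0.63 and 0.38.

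The copying genes were called in 9 of 11 cases with si-miR-671 and 5 of 11 with si-miR-20a, PCNA (0.25 and 0.10) and the uracil-DNA glycosylase UNG (0.13 and 0.02) in neither. RRM1 rose by 0.28 and 0.18 and RRM2 by 0.44 and 0.49, in the order si-miR-671 and si-miR-20a. Of the histone supply genes, CHAF1B rose in both, by 0.32 each, CHAF1A in si-miR-671 by 0.43, and SLBP, which binds histone transcripts, in neither. CHAF1B lost its call in 5 of the 8 sets without 1 array in each comparison, and RRM1 with si-miR-20a in 6. CCNE1, E2F1, E2F2 and E2F8 passed in no comparison with control; E2F1 had wide intervals, for example 0.10 to 0.97 around its late si-miR-671 difference of 0.53.

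**Figure D5:**
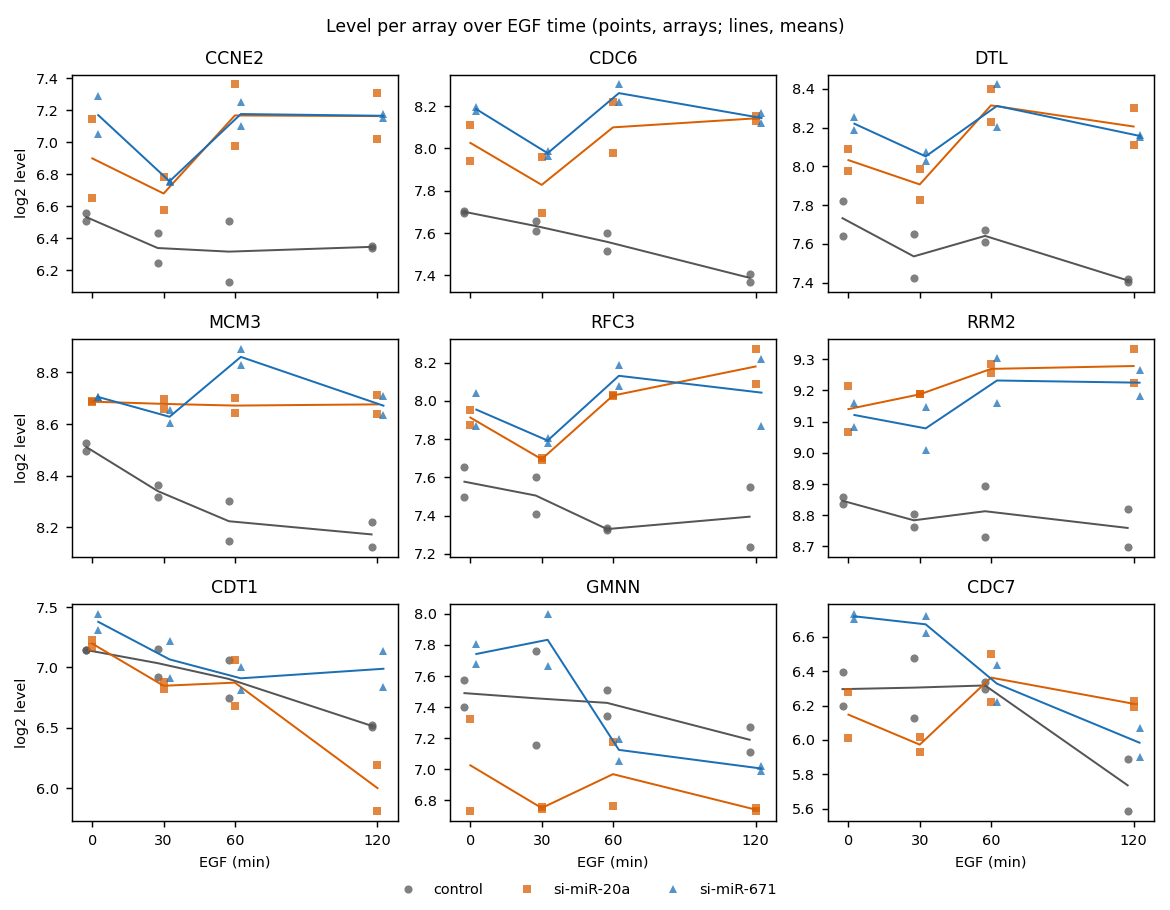
Log2 level of 9 genes on each array (points) and group means (lines) against minutes of EGF, by transfection. CCNE2, DTL, MCM3, RFC3 and RRM2 lie above all control arrays on every array of both targeting groups. CDC6 does so with si-miR-671, but with si-miR-20a only when the 60 and 120 min arrays are compared. CDT1 reaches 6.19 and 5.81 in si-miR-20a at 120 min.

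Averaged over the 4 times, 33 of the 41 genes were called higher than control on the arrays labelled si-miR-671 and 0 lower. Of all probe sets 14.5% were called, 6.79% higher and 7.7% lower. Without the late si-miR-671 arrays the count was 9. With si-miR-20a 16 were called higher than control and 1 lower, GMNN at -0.52 (limma adjusted p = 0.0015). In that comparison 24.5% of all probe sets were called, 11.9% higher and 12.7% lower. Against si-miR-671, 9 genes were called lower with si-miR-20a and 0 higher, with 4.54% of all probe sets called, 2.16% lower and 2.38% higher. Without the late si-miR-671 arrays 7 genes were called, 4 of those 9 (ORC1, GMNN, MCM6 and RFC4) with MCM10, CDC7 and POLA1. Between 3 and 11 genes were called when 1 array was left out, with 3 without si-miR-671 0 min replicate 1 and 4 without si-miR-671 120 min replicate 2, si-miR-20a 0 min replicate 2 or si-miR-20a 60 min replicate 2. At 60 and 120 min alone that comparison left 1 gene, CDT1 at -0.51 (limma adjusted p = 0.049), with 1.13% of all probe sets called, 0.206% lower and 0.92% higher. The call of CDT1 was lost in 7 of the 8 sets without 1 array and with the replicate block, and 4 genes were called with an intensity trend in the spread, CDT1, MCM7, RFC2 and TYMS.

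Whether the difference from control itself grew from early to late arrays was tested directly. For si-miR-671, 0 of the 41 genes were called (0.519% of all probe sets), with 9 higher and 1 lower at an unadjusted p under 0.05 (6.49% and 8.09% of all probe sets), and MCM3 was called when dim probe sets were left out or an intensity trend was used. For si-miR-20a, 0 were called (0.00514% of all probe sets), with 14 higher and 0 lower at an unadjusted p under 0.05 (4.23% and 1.71% of all probe sets). The largest estimates were POLE2 (0.68) and MCM10 (0.53) for si-miR-20a and GMNN (-0.56) and E2F1 (0.55) for si-miR-671. So a gain of the difference with time was not shown for any of the 41 in this fit, although more genes were called late than early.

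Over EGF time, averaged over the 3 transfections, none of the 41 genes passed the test at 30 min or at 60 min, where limma called 0.766% (0.0411% lower, 0.725% higher) and 2.66% (0.493% lower, 2.16% higher) of all probe sets. At an unadjusted p under 0.05, 8 were lower at 30 min and 4 at 60 min, and none higher; of all probe sets 2.59% and 4.87% were lower and 3.15% and 7.19% higher. With both directions counted, the 4 genes at 60 min are a share near that of all probe sets. All 4 were lower, and among lower ones alone their share is above the 4.87% of all probe sets. At 120 min 9 were lower and 0 higher than at 0 min, where 13.4% of all probe sets were called, 6.27% lower and 7.13% higher. The 9 were CDT1 (-0.74), ORC1 (-0.54), GMNN (-0.44), CDC7 (-0.41), POLE2 (-0.38), TYMS (-0.34), ORC6 (-0.33), PCNA (-0.23) and MCM7 (-0.20). Of the 6 licensing genes 4 were among them, which leaves CDC6 and DTL. Leaving out 1 of the 12 arrays left 5 to 13, with 5 without control 120 min replicate 1, si-miR-671 0 min replicate 1 or si-miR-20a 0 min replicate 1; CDC7, CDT1, ORC1 and TYMS were called each time. Without all si-miR-671 arrays 5 of the 9 kept their call and 4 lost it. The average includes the 120 min arrays labelled si-miR-671, whose labels are in doubt. CDC7 was called at 120 min within control and within si-miR-671 cells, but not within si-miR-20a cells.

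CDT1, the licensing factor that is destroyed in S phase, read 7.14 and 7.15 in control, 7.23 and 7.17 in si-miR-20a and 7.45 and 7.31 in si-miR-671 at 0 min. At 120 min it read 6.51 and 6.52, 6.19 and 5.81, and 6.84 and 7.14. All 6 arrays at 120 min were below all 6 at 0 min, although the highest at 120 min and the lowest at 0 min both round to 7.14; CDT1 and ORC1 were the 2 genes of the 41 with none (0.956% of all probe sets, lower). ORC1, the largest subunit of the origin recognition complex, read 6.53 and 6.53, 6.51 and 6.47, and 6.79 and 6.68 at 0 min, and 6.01 and 5.75, 6.01 and 6.05, and 6.23 and 6.22 at 120 min, in the same order of transfections.

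Within control cells 5 genes were lower at 120 than at 0 min, POLE2 (-0.72), ORC6 (-0.66), ORC1 (-0.65), CDC7 (-0.56) and MCM3 (-0.34), with 2.96% of all probe sets called, 0.791% lower and 2.17% higher. Within si-miR-20a cells 4 were lower, CDT1 (-1.20), TYMS (-0.55), ORC1 (-0.46) and MCM7 (-0.35), with 7.64% of all probe sets called, 3.14% lower and 4.49% higher. Within si-miR-671 cells 4 were lower, GMNN (-0.74), CDC7 (-0.73), ORC1 (-0.51) and RFC4 (-0.41), with 5.95% of all probe sets called, 2.73% lower and 3.22% higher. These are 2 arrays against 2, and most calls were lost without 1 array: 0 to 3, 1 to 6 and 0 to 1 were left, and 0, 0 and 0 in fits of the compared groups alone. CDT1 in si-miR-20a kept its call without any 1 of its 4 arrays (limma adjusted p up to 0.0096). Differences between the transfections in these changes at 120 min were not tested. The si-miR-671 comparison rests on 120 min arrays whose labels are in doubt. GMNN, CDC7, ORC1 and RFC4 were also lower in early si-miR-20a than in early si-miR-671. Both comparisons use the si-miR-671 arrays at 0 min, so they are not independent of each other. ORC1 was also lower at 120 min within control and within si-miR-20a cells, and CDC7 within control cells. What part the label doubt has in the si-miR-671 calls was not tested.

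From early to late arrays labelled si-miR-671, GMNN and CDC7 fell and CDC45 rose by 0.35, where limma called 9.27% of all probe sets, 5.08% lower and 4.19% higher. These 3 of the 41 genes are no larger a share than that of all probe sets. In si-miR-20a DTL (0.29) and MCM10 (0.40) rose and CDT1 (-0.59) fell, with 5.65% of all probe sets called, 4.45% higher and 1.21% lower. Those 3 genes are likewise a share near that of all probe sets. In control MCM3 (-0.23) and POLE2 (-0.50) fell and 0 rose, with 2.43% called, 0.488% lower and 1.94% higher. GMNN read 7.68, 7.81, 8.002 and 7.66 early and 7.19, 7.06, 6.99 and 7.02 late, a difference of -0.72 (limma adjusted p = 0.0059). CDC7 read 6.70, 6.73, 6.72 and 6.62 early and 6.22, 6.43, 5.90 and 6.07 late, a difference of -0.54 (limma adjusted p = 0.0037). In si-miR-20a cells GMNN differed by -0.03 and CDC7 by 0.23 over the same times, and in control cells by -0.16 and -0.27, and none of these passed. GMNN is one of the 80 genes used to place the arrays.

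Of the genes of the same pathway outside the 41, 54 were measured. With si-miR-671 at 0 and 30 min 6 rose and 1 fell, with WDHD1 (0.53), PRIM2 (0.50) and ASF1B (0.47) the largest, and with si-miR-20a 5 rose and 5 fell. The latter included CCND1, the G1 cyclin, at 0.61, the kinase inhibitors CDKN1B at -0.59 and CDKN1A at 0.51, and CDK6 at -0.48. Of all probe sets 1.36% were higher and 1.44% lower with si-miR-671 at these times, and 4.79% and 7.17% with si-miR-20a. The 5 that fell with si-miR-20a are a share near that of all probe sets. At 60 and 120 min 18 rose and 2 fell with si-miR-671, and 16 rose and 5 fell with si-miR-20a. Of all probe sets 7.04% were higher and 8.37% lower with si-miR-671, and 8.95% and 7.75% with si-miR-20a. CLSPN, which relays replication stress to the checkpoint kinase, was higher by 0.91 with si-miR-671 and 0.75 with si-miR-20a. RPA1, which coats single-stranded DNA, was higher by 0.76 and 0.65 in the same order. At 120 min of EGF, averaged over transfections, 7 of the 54 rose and 6 fell, with CDKN1B at -0.71, E2F7 at 0.56, TK1 at -0.48 and CDKN1A at 0.45. Of all probe sets 7.13% were higher and 6.27% lower in that comparison.

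A list of 25 measured genes of mitosis gives the comparison with another phase of the cycle. Early, 6 rose and 0 fell with si-miR-671, and 0 rose and 3 fell with si-miR-20a, CENPE (-0.43), CCNA2 (-0.34) and TOP2A (-0.28). Of all probe sets 1.36% were higher with si-miR-671 and 7.17% lower with si-miR-20a. With si-miR-20a against si-miR-671 at 0 and 30 min 14 of the 25 were lower and 0 higher, against 4.77% and 2.74% of all probe sets. Late, 15 rose with si-miR-671, while 8 rose and 1 fell with si-miR-20a. Of all probe sets 7.04% were higher with si-miR-671, and 8.95% higher and 7.75% lower with si-miR-20a. The medians of the mitosis list and of the 41 genes were 0.27 and 0.26 early and 0.30 and 0.37 late with si-miR-671, and -0.05 and 0.05 early and 0.13 and 0.26 late with si-miR-20a; no test of the difference between the lists was made.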

How the data were processed

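RNA from 24 MCF10A samples was measured on Affymetrix Human Gene 1.0 ST arrays. The authors deposited log2 values, 1 per probe set, made with Affymetrix Expression Console per the submitters' processing notes, with version, summarisation and normalization not given in the sources used here. Values for 33297 probe sets were used as deposited, without further normalization; their range set the base of the logarithm. The 19460 probe sets with exactly 1 gene symbol in the platform table were tested.

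A mean per group was fitted over all 24 arrays with limma 3.58.1 (R 4.3.3), 12 residual degrees of freedom, eBayes and Benjamini-Hochberg adjustment over all 19460; a call is an adjusted p under 0.05. Fits were tested on simulated data.

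All 41 genes could be named in every comparison; of the other pathway genes, at most the 4 largest called estimates. The members and lists were chosen with earlier results of these data known. Replicate numbers did not pair samples in a steady way: deviations of same-numbered arrays correlated between -0.57 and 0.55 over 66 pairs of groups, with a median of 0.06 and 30 above 0.1. Arrays of some groups may still share deviations, which the main fit takes as independent. The alternatives were a replicate block, all probe sets, gene means, a filter on dim probe sets, quantile normalization, median centring, an intensity trend, fits of the compared groups alone, and leaving out arrays. Arrays limit precision by their number. Sequences came from RefSeq (GRCh38.p14). miR-212, named in the treatment text, was not analysed here.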

Additional observations from a re-analysis of the deposited data

Results flagged for a closer look

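One gene's change from early (0 and 30 min) to late (60 and 120 min) arrays differed between si-miR-671 and si-miR-20a. CDC7, the kinase that fires licensed origins, fell in si-miR-671 and was not called in si-miR-20a, and the change in si-miR-671 minus that in si-miR-20a was -0.77 on the log2 scale (SE 0.143, limma adjusted p = 0.022, n = 4 arrays at each of the 4 corners). Of all probe sets, 1.33% were called in this comparison, 1.03% lower and 0.298% higher. It was added after the data were seen. CDC7 alone among the genes described here is a share near that of all probe sets, so the call does not set these genes apart as a group. All 4 late si-miR-671 arrays (5.90 to 6.43) lay below all 4 early ones (6.62 to 6.73). The call was lost in 8 of the 16 sets that left out 1 array, with adjusted p up to 0.078, and the estimate stayed between -0.84 and -0.70. In a fit of the compared groups alone the adjusted p was 0.087. Against control the same change was not called, at -0.27 for si-miR-671 (limma adjusted p = 0.41) and 0.50 for si-miR-20a (limma adjusted p = 0.6). The late si-miR-671 arrays were on average nearer to early si-miR-20a at 64 of 80 genes chosen to place the arrays, and what part that has in this value was not tested.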

How the results depend on the processing

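No result changed direction under any alternative run. In fits of the compared groups alone, which have fewer arrays, the counts of called genes were 3 for si-miR-20a against si-miR-671 over all times and 0 for each of its early and late parts, 1 for early si-miR-671 and 3 for early and 9 for late si-miR-20a against control, 5 for EGF 120 min averaged over transfections, 0 within each transfection, and 0 for the change of si-miR-671 minus that of si-miR-20a. With all probe sets tested they were 3 for EGF 120 min in control, 6 for early and 0 for late si-miR-20a against si-miR-671. The late comparison gave 3 with dim probe sets left out (mean log2 level under 5), 2 with quantile normalization, 3 with median centring and 4 with an intensity trend. The gain of the si-miR-671 difference from early to late gave 1 (MCM3) without dim probe sets or with the trend. Without the late si-miR-671 arrays, 9 genes were called for si-miR-671 over all times, and without all si-miR-671 arrays 5 for EGF 120 min. With the replicate block, counts were 33, 19 and 11 for si-miR-671, si-miR-20a and their contrast over all times, 12 for early si-miR-671, and 0 for the late contrast (CDT1 lost); no other count moved by over 1.5 times.

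Leaving out 1 array gave 28 to 33 genes for si-miR-671 and 16 to 23 for si-miR-20a over all times and 3 to 11 for their contrast, 5 to 9 and 22 to 27 for early and late si-miR-671, 5 to 8 and 15 to 21 for early and late si-miR-20a, 3 to 11 and 0 to 4 for the early and late contrast, 0 to 1 for EGF 60 min, 5 to 13 for EGF 120 min, and 0 to 3, 1 to 6 and 0 to 1 for EGF 120 min within the control, the si-miR-20a and the si-miR-671 cells. The change of si-miR-671 minus that of si-miR-20a gave 0 to 2. Each group has 2 arrays, which limits what can be called, and no detection calls were used to set signal against background.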
